A study of Mus musculus with 4 samples.

Results

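Gata4 ChIP-seq was examined in mesoderm cells that lack both *de novo* DNA methyltransferases. The peak list held 22733 peaks called in DKO Flk1(+) cells with Dex over DKO ES cells without Dex, each counted once, and named 10819 genes within 5 kb of a peak. These values rested on 2 of the 4 libraries of the series, with 1 library per condition, so that no value had a replicate and no test was run. DKO cells are *Dnmt3a* -/- *Dnmt3b* -/- mouse ES cells of the J1 line on a 129 background. They were given Gata4GR, a fusion of Gata4 with the steroid-binding part of the glucocorticoid receptor that is expressed from a CAG promoter and is switched on by the steroid dexamethasone (Dex). The mesoderm library came from the single clone 16G4.3, grown on OP9 stroma cells without LIF, sorted for the receptor Flk1 and taken at day 4.5 after 3 hr of 100 nM Dex. The ES library came from undifferentiated DKO cells without Dex. Per the paper these cells also expressed Gata4GR, and the labels give no clone for them. Cell type and Dex therefore changed together between the libraries, and their effects cannot be told apart. Chromatin came from pooled cells, in which strong binding in some cells and weaker binding in all cells cannot be told apart. Binding values check neither the cell type nor the deletion: *Dnmt3a* had 2 peaks, of heights 15.0 and 5.98, and *Dnmt3b* had none.

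Gata4 is a zinc-finger transcription factor that recognizes the core sequence GATA and acts in the heart, blood vessels, gut and primitive endoderm. Gata factors often bind far from the genes they regulate, in introns and between genes, together with Fog cofactors and other lineage factors. In ChIP, CpG-rich promoters of active genes can also give signal without the motif of the factor, since their chromatin is open.

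Each peak has a height, which is the signal of the authors' profile in the mesoderm library, and a height at the same position in the ES library. The ratio of these heights takes an ES height below 1 as 1. The authors required a height of at least 5 and a ratio of at least 3, so values near these limits are set by the calling. Reference sequences of 121 bp around 8 peaks are shown because they stand for the kinds of peak that led the rankings. They are given from mm9 on the plus strand, with each AGATAA or TGATAA, on either strand, in capitals. The first 4 belong to genes among those of highest ratio, in *Rgs6* (chr12:84173981-84174101), *Kdr* (chr5:76358333-76358453), *Flt1* (chr5:148469553-148469673) and *Hhex* (chr19:37510216-37510336). The next 2 are the tallest peaks of *Zfpm1* (chr8:124837454-124837574) and of the whole list, in *Cd59a* (chr2:103938778-103938898). The last 2 are tall peaks directly upstream of the starts of *Got1* (chr19:43599103-43599223) and *Top2a* (chr11:98885556-98885676).
Rgs6: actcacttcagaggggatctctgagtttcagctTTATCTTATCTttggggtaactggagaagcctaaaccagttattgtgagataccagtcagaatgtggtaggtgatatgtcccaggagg
Kdr: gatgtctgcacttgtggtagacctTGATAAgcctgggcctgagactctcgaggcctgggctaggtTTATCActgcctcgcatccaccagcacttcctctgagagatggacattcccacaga
Flt1: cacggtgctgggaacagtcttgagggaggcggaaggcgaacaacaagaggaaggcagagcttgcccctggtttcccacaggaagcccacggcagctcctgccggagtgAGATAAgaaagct
Hhex: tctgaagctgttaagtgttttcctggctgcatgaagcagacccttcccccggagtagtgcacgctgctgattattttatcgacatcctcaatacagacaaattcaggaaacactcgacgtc
Zfpm1: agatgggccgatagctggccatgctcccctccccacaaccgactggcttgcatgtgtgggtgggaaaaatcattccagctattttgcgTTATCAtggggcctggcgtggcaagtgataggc
Cd59a: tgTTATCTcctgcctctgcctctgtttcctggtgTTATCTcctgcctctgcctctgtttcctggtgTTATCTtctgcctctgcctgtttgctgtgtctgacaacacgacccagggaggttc
Got1: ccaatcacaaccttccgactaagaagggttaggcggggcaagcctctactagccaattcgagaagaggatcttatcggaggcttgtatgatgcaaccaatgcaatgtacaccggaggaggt
Top2a: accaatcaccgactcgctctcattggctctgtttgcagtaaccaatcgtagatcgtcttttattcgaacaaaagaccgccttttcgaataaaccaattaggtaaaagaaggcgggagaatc

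The windows shown for *Flt1* and *Zfpm1* held 1 copy of the GATA motif each, and those of *Rgs6* and *Kdr* held 2. The copies in *Rgs6* began 5 bp apart and shared a base. In *Cd59a*, 3 copies began 32 bp apart, as part of a 32-bp stretch repeated in tandem. How reads map to this repeat was not tested. The windows of *Hhex*, *Got1* and *Top2a* held no AGATAA or TGATAA. Those of *Hhex* and *Got1* did hold TTATCG, which has the GATA core on the other strand but was not counted as the motif. Of the promoter windows, that of *Got1* held 50.4% G and C and that of *Top2a* 43.0%.

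The height of the 22733 peaks had a median of 6.91, with an upper quartile of 9.27 and a maximum of 101.0, and the ES height had a median of 1.58 and a maximum of 18.8. The ratio had a median of 4.37 and a maximum of 40.5. A ratio of at least 10 was found at 740 peaks, which is 3.26% (95% Wilson interval 3.03% to 3.49%), and a height of at least 10 at 4669 peaks (20.5%). Intervals cover counting error within a library only. Within 1 kb of an annotated transcription start lay 12042 peaks (53.0%). Introns of protein-coding genes held 4694 further peaks (20.6%), their exons 503 (2.21%), and 5494 (24.2%) lay between these genes.

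Peaks at starts and peaks away from them formed different groups, although their heights overlapped. Peaks within 1 kb of a start had a median height of 7.44, a median ES height of 1.83 and a median ratio of 3.97. Peaks farther than 5 kb from every start had a median height of 6.46, a median ES height of 1.26 and a median ratio of 5.19. The ES height was below 1 at 7.56% of the peaks at starts and at 34.2% of those farther than 5 kb. A ratio of at least 10 was found at 0.814% of the peaks at starts (0.668% to 0.991%) and at 6.58% of those farther than 5 kb (6.06% to 7.14%). The sequence windows deposited with the peaks held a median of 37 CpGs at starts, against 7 farther than 5 kb.

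**Figure D1:**
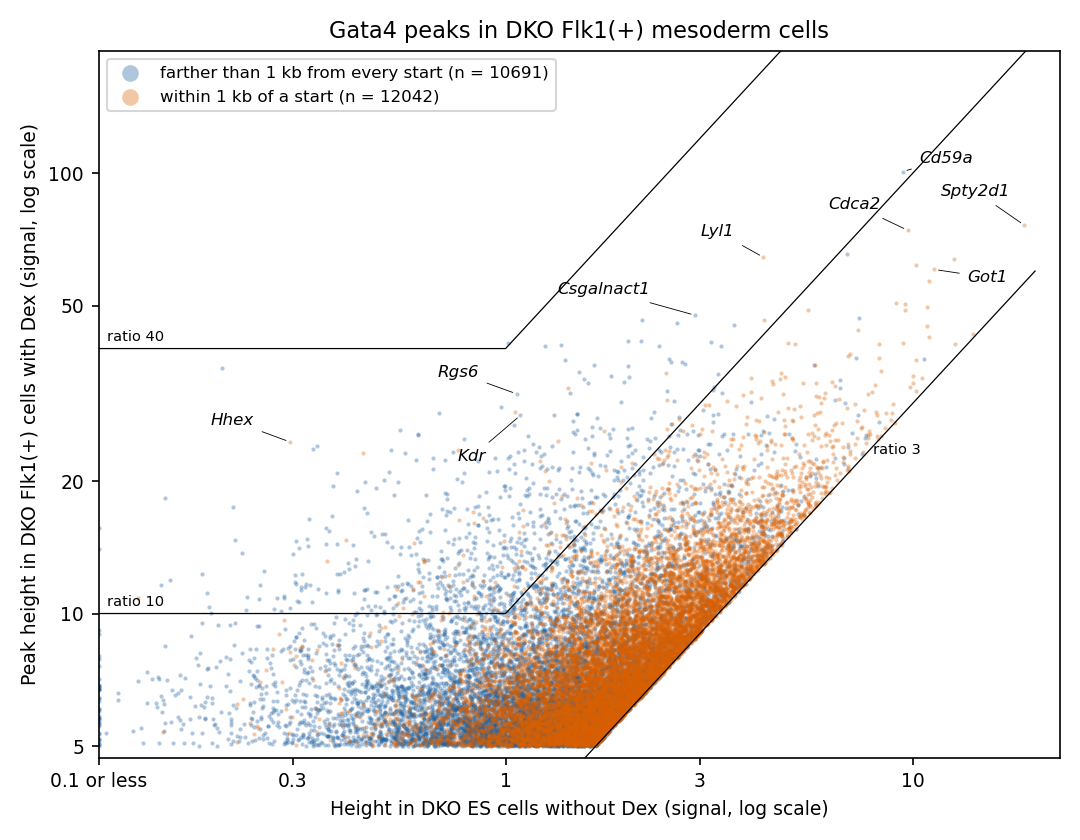
Height of each DKO peak in Flk1(+) cells with Dex against its height in ES cells without Dex, both as signal on log scales, with ES heights under 0.1 drawn at 0.1. Orange points lie within 1 kb of a start and blue points farther, lines mark ratios of 3, 10 and 40, and named peaks show that peaks of high ratio (*Rgs6*, 29.6) had ES heights near or below 1, whereas most of the tallest (*Spty2d1*, 76.3 over 18.8) had high ES heights.

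The GATA motif followed this division. AGATAA or TGATAA occurred on either strand in 62.6% of the 10691 peaks farther than 1 kb from every start (61.7% to 63.5%) and in 38.5% of the windows of equal length 2 kb to either side of them. At starts it occurred in 16.3% of peaks (15.6% to 17.0%), below the 23.3% found in windows of equal length around the starts of all 22225 protein-coding genes. These windows were not matched to the peaks in base composition or in distance to the start. Away from starts, matches were densest within 25 bp of the peak, at 5.37 per 1000 peaks per bp, and fell to 1.13 beyond 200 bp. At starts the corresponding densities were 0.618 and 0.420. When the peaks were divided into 10 equal classes by ratio, the share of peaks with the motif away from starts went from 37.3% in the lowest class to 89.6% in the highest, and at starts from 13.0% to 30.2%. By height, the share away from starts went from 51.6% to 84.9%, but at starts it stayed between 13.4% and 20.6% in every class.

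**Figure D2:**
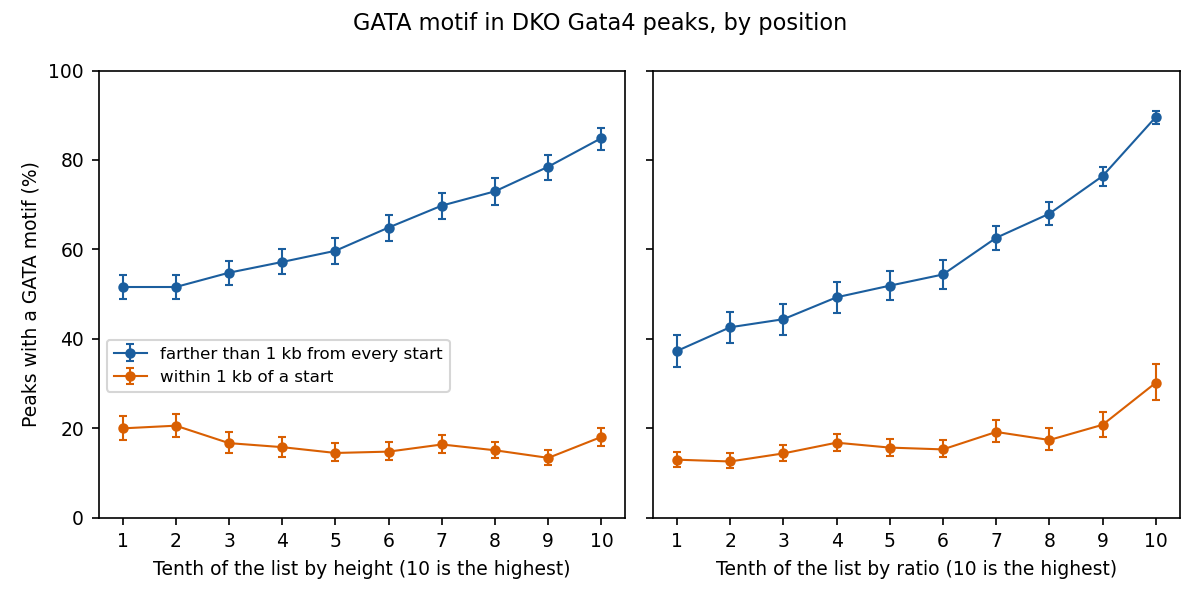
Share of peaks with the GATA motif in 10 equal classes of height (left) and ratio (right), with 95% Wilson intervals, for peaks within 1 kb of a start (orange) and farther (blue). Away from starts the share goes from 51.6% to 84.9% with height and from 37.3% to 89.6% with ratio, and at starts it does not pass 30.2% in any class.

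The number of motifs in a window also went with the ratio. Away from starts, 4001 peaks without the motif had a median ratio of 4.23, and 1.12% of them had a ratio of at least 10. With 1 motif the median ratio was 5.20 and this share 5.42%, with 2 motifs 5.61 and 10.2%, and with 3 motifs 6.07 and 14.4%. Windows with 4 or more had a median ratio of 5.89 and a share of 14.1%, close to those with 3. The palindromic glucocorticoid response element, which the DNA-binding part of the glucocorticoid receptor recognizes and Gata4GR lacks, was found on either strand in 12 of all windows (0.0528%) and in 0.0440% of the windows 2 kb away.

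Other motifs differed between peaks at starts and windows around all starts, which again were not matched in base composition. GGGCGG, the core of Sp1 sites, occurred on either strand in 73.9% of peaks at starts and in 52.7% of windows around all protein-coding starts. CCGGAA, the core of Ets sites, occurred in 36.3% and 24.4%. CCAAT, bound by NF-Y, occurred in 46.1% and 48.1%, and CACGTG, an E-box, in 14.4% and 10.4%. Away from starts these motifs were found in 18.3%, 10.7%, 42.1% and 9.44% of peaks, and in 9.49%, 5.78%, 48.6% and 6.93% of the windows 2 kb to either side.

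Of 22225 protein-coding genes, 10367 (46.6%) were given at least 1 peak, and 8303 (37.4%) had a peak within 1 kb of a start. A peak farther than 1 kb from every start was given to 3610 genes (16.2%), a peak with a height of at least 10 to 3947 (17.8%), and a peak with a ratio of at least 10 to 393 (1.77%). The counts below are read against these shares. They depended on gene length. In the shortest of 4 equal classes of genes 21.0% were given a peak, and in the longest class 62.2%. For a ratio of at least 10 these shares were 0.522% and 3.96%. For a peak farther than 1 kb from every start they were 4.73% and 33.8%. Of the 10819 names in the list, 4809 had 1 peak, 1449 had 4 or more and 45 had 10 or more.

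*Zfpm1*, which encodes the Gata cofactor Fog1, had the most peaks, 25, and also the best mean rank over number, height and ratio. Its peaks were spread from upstream of the start to a coding exon, and 18 of the 25 held the GATA motif. The 6 peaks of highest ratio lay in introns, with heights of 19.5, 19.4, 25.9, 36.8, 41.3 and 24.7, ES heights from 0.992 to 3.20 and ratios of 19.5, 19.4, 17.7, 13.4, 12.9 and 10.9. The 3 peaks directly upstream of the start had no motif, heights of 7.61, 13.1 and 9.04 and ratios from 3.02 to 5.54. Among the other Gata and Fog genes, *Gata6* had 7 peaks with heights from 6.06 to 12.3, *Zfpm2* (Fog2) 5 with a tallest of 7.52, *Gata2* 4 with a tallest of 7.53, and *Gata1*, *Gata3* and *Gata4* 1 each with heights of 7.73, 6.20 and 7.46. The *Gata4* peak lay in an intron, held 5 motifs and had a ratio of 3.74. *Gata5* had no peak. Of these 8 genes 7 were given a peak farther than 1 kb from every start, against 16.2% of all genes. Their median length was 33041 bp, against 15532 bp over all genes.

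*Trp73*, of the p53 family, came next with 23 peaks, but they were arranged unlike those of *Zfpm1*. Of its peaks 20 lay within 7690 bp (chr4:153438082-153445772), over introns and coding exons, and 16 of these 20 held no GATA motif. Their heights had a median of 8.20 and their ES heights a median of 1.13. No other 10-kb stretch held as many: the next held 12, around *Midn* and *Cirbp* and again at the neighbors *Kdm6b* and *Dnahc2*, which share several peaks. When peaks within 500 bp were counted once, *Trp73* had 6. The number of DNA copies of this stretch in the clone was not tested.

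*Bcas3* and *Frmd4b* had 18 peaks each, *Gse1* had 17 and *Kdm6b*, a demethylase of histone H3 lysine 27, had 16. *Pard3*, a cell polarity gene, *Tead1*, a transcription factor of the Hippo pathway, and *Maml3*, a Notch coactivator, had 15 each. *Ddc*, the aromatic amino acid decarboxylase, *Dnahc2*, a dynein heavy chain of cilia, and *Auts2* had 14 each. In *Bcas3*, 15 of 18 peaks held the GATA motif. The peaks of highest ratio in *Bcas3* were 3 at the end of the gene that faces *Tbx2*, with heights of 22.8, 26.0 and 16.5 and ratios of 18.7, 14.9 and 13.0, and 1 at 14.5 with a ratio of 14.5. *Ddc* had its tallest peaks in introns, at heights of 34.4 and 22.8 with ES heights of 4.02 and 1.03. In *Kdm6b* only 4 of 16 peaks held the motif and the highest ratio was 6.64. Motif-bearing peaks with a ratio of at least 10 were also found in *Frmd4b* (16.4), *Auts2* (up to 16.4), *Pard3*, *Tead1* (up to 12.3), *Maml3* (12.2) and *Dnahc2* (11.1). Of the 12 genes, *Trp73*, *Gse1* and *Kdm6b* had none, with highest ratios of 9.73, 7.85 and 6.64.

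**Figure D3:**
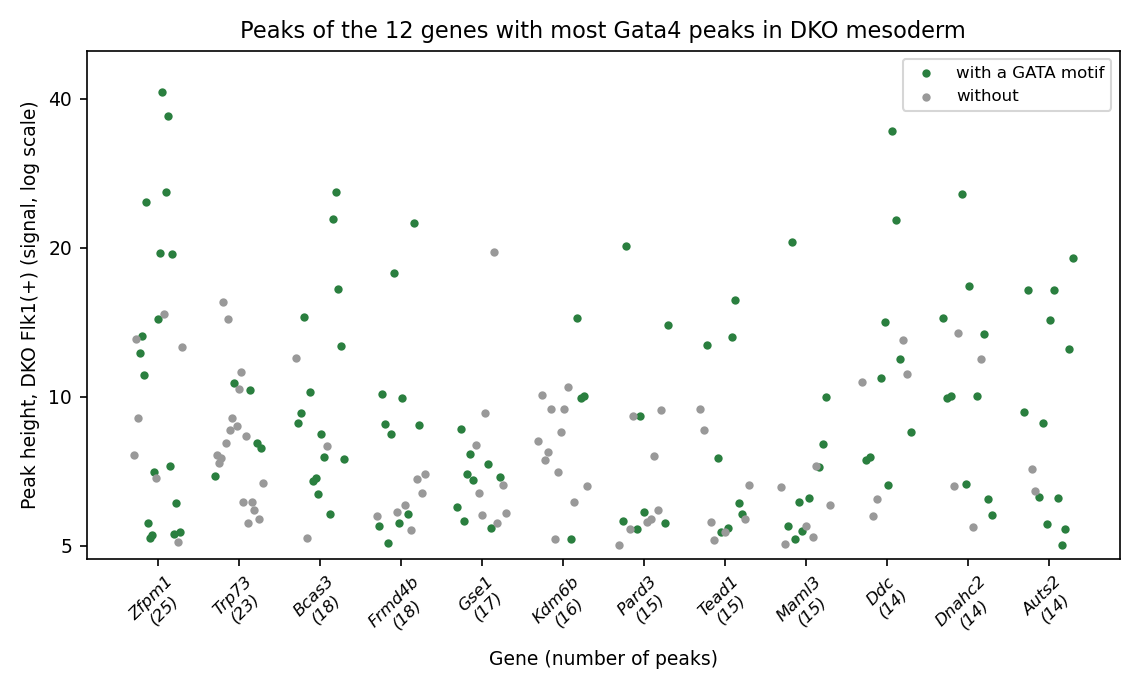
Height of every peak (signal, log scale) of the 12 genes with most peaks, in order along the chromosome within each gene, with peaks that hold the GATA motif in green and others in grey. *Zfpm1* has 25 peaks that reach 41.3, and the 23 peaks of *Trp73* are mostly grey and stay at or below 15.5.

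Long genes can collect more peaks. Per 100 kb of gene and 5 kb on each side, among genes with at least 4 peaks, the densest were short genes: *Thap11* (76.0 peaks per 100 kb), *Ier2* (69.4), *Zfp36* (64.1), *Zfp703* (63.7) and *Kdm6b* (63.6). The counts of *Thap11*, *Zfp36* and *Kdm6b* included peaks at starts of neighboring genes. The 9 peaks of *Thap11* held no GATA motif, and were 4 when peaks within 500 bp were counted once. *Ier2* and *Zfp36* are immediate early genes, which respond to serum and growth factors within minutes. All 24 immediate early genes of a list were given a peak and 22 had one within 1 kb of a start. A peak farther than 1 kb from every start was given to 16 of them (66.7%, against 16.2% of all genes). They had tallest heights from 5.18 (*Egr2*) to 38.9 (*Atf3*). *Fos* had 5 peaks, *Jun* 5, *Junb* 6 and *Egr1* 2, of which 0, 2, 0 and 0 held the GATA motif. In *Ier2* 1 of 8 peaks held it and in *Zfp36* 2 of 8.

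Ranked by height, the first 12 gene names shared 8 peaks, since a peak near several genes counts for each. The tallest peak of the list, at 101.0 over 9.47 in ES cells, lay in an intron of *Cd59a*, which encodes an inhibitor of complement. It lay 2841 bp downstream of the start, over the tandem repeat with 3 motifs shown above. *Spty2d1*, a histone chaperone gene, had a height of 76.3 over the highest ES height of the list, 18.8, for a ratio of 4.05. The peak of *Cdca2* and *Kctd9* had 74.3 over 9.72, and that of *Cdca8*, which encodes borealin, and *9930104L06Rik* had 63.8 over 12.6. *Birc5* (survivin) had 62.0 over 10.2, *Got1*, an aspartate aminotransferase, 60.5 over 11.3, and the peak of *Ttc32* and *Wdr35* 56.8, with a ratio of 5.18. The peak shared by *Lyl1*, a basic helix-loop-helix factor of blood cells, and *Trmt1*, a tRNA methyltransferase, differed from these: its height was 64.5 over 4.30, its ratio was 15.0 and its window held 2 GATA motifs. All 8 but that of *Cd59a* lay within 1 kb of a start. Only the first 3 were taller than a peak of 65.5 over 6.89 on chromosome 11, which lay 28678 bp downstream of the start of *Wsb1* and was given no gene. Among the 100 tallest peaks 58 lay at starts, 57 held the GATA motif and 51 had an ES height of at least 5.

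Ranked by ratio, the first 12 names shared 9 peaks. *Rgs6*, a regulator of G protein signaling, had a peak of 31.6 over 1.06 in ES cells, for a ratio of 29.6, and *Abi3* and *Phospho1* shared 28.7 over 1.05 (27.3). *Kdr*, which encodes Flk1, the receptor used for the sort, had 28.2 over 1.09 (25.9) in a stretch annotated as an exon of a non-coding transcript, and 4 further peaks with heights from 5.27 to 11.4. *Cdh2* (N-cadherin) had 24.9 over 0.789, and *Hhex*, a homeobox gene of endoderm and endothelium, 24.5 over 0.295. *Krt78* and *Krt79* shared 24.0 over 0.345, *Plcg2* had 23.6 over 0.522, and *Gt(ROSA)26Sor* and *Setd5* shared 23.5 over 0.765. Because these last ES heights were below 1, the ratio equals the height. The window of the *Gt(ROSA)26Sor* and *Setd5* peak held no GATA motif, and other peaks at the same promoter had ES heights from 0.920 to 6.05. The order by ratio rested on the floor of 1. Only 5 of the 12 names stayed among the first 12 with a floor of 0.5. With a floor of 2 only 2 stayed, among them *Rgs6*. Among the 100 peaks of highest ratio 92 held the GATA motif, 7 lay at starts and 49 had no gene within 5 kb. The 2 sets of 100 shared 18 peaks.

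Many of the peaks with the highest ratios were given no gene. Of the 740 peaks with a ratio of at least 10, 352 (47.6%, interval 44.0% to 51.2%) had no gene within 5 kb, against 22.6% of all peaks. The nearest start of a protein-coding gene lay 37638 bp away for a peak of 36.2 over 0.201 upstream of *Tnc*, 22834 bp for a peak of 40.7 over 1.37 upstream of *Prrc2b*, and 84870 bp for a peak of 37.6 over 1.40 downstream of *Foxc2*. The last of these lies in an intron of *Gm20388* in the annotation used here, a gene that the authors' list does not give for it.

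Over number, height and ratio together, the 15 names of best mean rank began with *Zfpm1*, *Ddc*, *Col23a1*, a transmembrane collagen, *Trmt1*, *Csgalnact1*, which makes chondroitin sulfate, and *Bcas3*. *Palld*, *Large*, *Nfatc1*, *Sufu*, *Sept9*, *Pcdh7*, *Flt1*, *Frmd4b* and *Dnahc2* followed. *Csgalnact1* had 6 peaks, all with the GATA motif, of which the strongest had 47.6 over 2.92 and 22.3 over 0.711. *Col23a1* had 8 peaks with a tallest of 31.7 over 1.44 (22.0). *Nfatc1*, a factor of heart valve formation, had 9 peaks with a tallest of 25.4 over 1.63, and *Sufu*, a Hedgehog inhibitor, 11 with a tallest of 26.4 over 2.04.

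Gene lists were described by the share of their genes with a peak, beside the same share over all genes. Of 53 lists and gene name families, 41 had a larger share of genes with a peak than the 46.6% of all genes, so a share above it was common. The lists differed more in where the peaks lay.

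Genes of blood vessels often had peaks away from starts and peaks with high ratios. Of 41 genes 32 were given a peak (78.0%), 20 a peak within 1 kb of a start (48.8%, against 37.4%), 25 a peak farther than 1 kb from every start (61.0%, against 16.2%) and 7 a peak with a ratio of at least 10 (17.1%, against 1.77%). The genes were longer than usual, with a median length of 24236 bp against 15532 bp over all genes. The receptors *Kdr* and *Flt1* had tallest heights of 28.2 and 23.5. *Flt1* had 8 peaks, 5 of them with the motif, and its strongest had an ES height of 1.11 and a ratio of 21.2. *Eng*, a receptor of the TGF-beta family, had 14.6 with a highest ratio of 14.2, the Ets factor *Erg* 14.1 (14.1), *Efnb2*, an arterial ephrin, 18.9 (7.40) and *Plvap* 16.4 (7.97). *Tie1*, *Emcn* and *Sox18* had no peak.

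Contractile genes of heart and smooth muscle had peaks away from starts more often than at starts. Their median length was 20731 bp, against 15532 bp over all genes. Of 40 genes 22 were given a peak, 10 had one within 1 kb of a start (against 37.4% of all genes), 19 had one away from starts (47.5%) and 5 one with a ratio of at least 10 (12.5%). These 5 were *Ryr2*, the calcium release channel (highest ratio 14.9), *Nebl* (12.2), the slow troponin I gene *Tnni1* (11.8), *Actn2* (10.7) and *Myh11* (10.1). *Fhod3*, a formin of sarcomeres, had the tallest peak, 33.9. *Acta2*, *Actg2* and *Myh6* had none. Of 32 cardiac transcription regulators 28 were given a peak (87.5%) and 18 one away from starts (56.2%). None had a ratio of at least 10, which is near the 1.77% of all genes. The highest were *Prdm16* with a height of 17.7, *Mef2d* with 15.6, *Tbx5* with 14.3, *Tbx20* with 14.1 and *Mkl1* with 13.5, and *Nkx2-6*, *Tbx18* and *Mef2b* had none.

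Signaling lists also held genes with peaks of high ratio, some of them already counted among the vessel genes. In the BMP and TGF-beta pathway 29 of 46 genes were given a peak (63.0%), 22 away from starts (47.8%), and 4 with a ratio of at least 10: the receptor *Acvrl1* (19.9 over an ES height below 1), the ligand *Bmp6* (16.9), *Eng* and the target *Id3* (10.4). *Smad1* had 9 peaks with a tallest of 17.6. The genes of this pathway had a median length of 33566 bp, against 15532 bp over all genes. In the FGF and VEGF pathway 26 of 36 genes were given a peak. A ratio of at least 10 was found at 4 of these, *Kdr*, *Flt1*, *Nrp1* (11.7) and *Fgf10* (18.5). Of the genes named here, *Kdr*, *Flt1*, *Nrp1* and *Eng* were also counted in the vessel list. The Wnt pathway had 32 of 51 genes with a peak and the Notch pathway 22 of 30. The Hedgehog pathway had 9 of 17 and the retinoic acid pathway 13 of 22. These lists held 1, 2, 1 and 0 genes with a ratio of at least 10, against 1.77% of all genes.

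Of 33 blood genes 19 were given a peak (57.6%) and 3 one with a ratio of at least 10, *Lyl1* (15.0), *Cbfa2t3* (16.5), a corepressor gene, and *Runx1* (11.5), a regulator of blood stem cells. *Tfrc*, the transferrin receptor, had a height of 14.6. The embryonic globin genes *Hba-x* and *Hbb-y* and *Gfi1b* had no peak. Of 31 early mesoderm regulators 18 had a peak (58.1%), with tallest heights of 17.0 at *Tcf15*, 13.0 at *Fgf8*, 9.05 at *Pdgfra*, 8.65 at *Twist2* and 8.32 at *Eomes*. None reached a ratio of 10, and *T*, *Mesp2* and *Wnt3a* had no peak.

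Endoderm transcription factors had a peak at 17 of 30 genes (56.7%, interval 39.2% to 72.6%), against 46.6% of all genes. *Hhex* was the only one with a ratio of at least 10, and *Prox1*, *Gata6* and *Grhl2* had tallest heights of 12.5, 12.3 and 8.96. Effector genes of visceral endoderm and liver had a peak at 15 of 40 genes (37.5%), 11 of them away from starts. *Col4a1*, of the basement membrane, had 7 peaks with a tallest of 19.3, *Apom* 17.1, *Apoe* 16.2, *Dab2* 1 peak with a ratio of 3.96 and *Sord* 9.44. For the genes that the study grouped by their response to Gata4 in expression arrays of these cell lines, 22 of 53 group 1 genes (41.5%) and 23 of 39 group 2 genes (59.0%) were given a peak, and 1 and 2 had one with a ratio of at least 10. These lists were chosen by the study in the same cells and are no independent evidence.

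**Figure D4:**
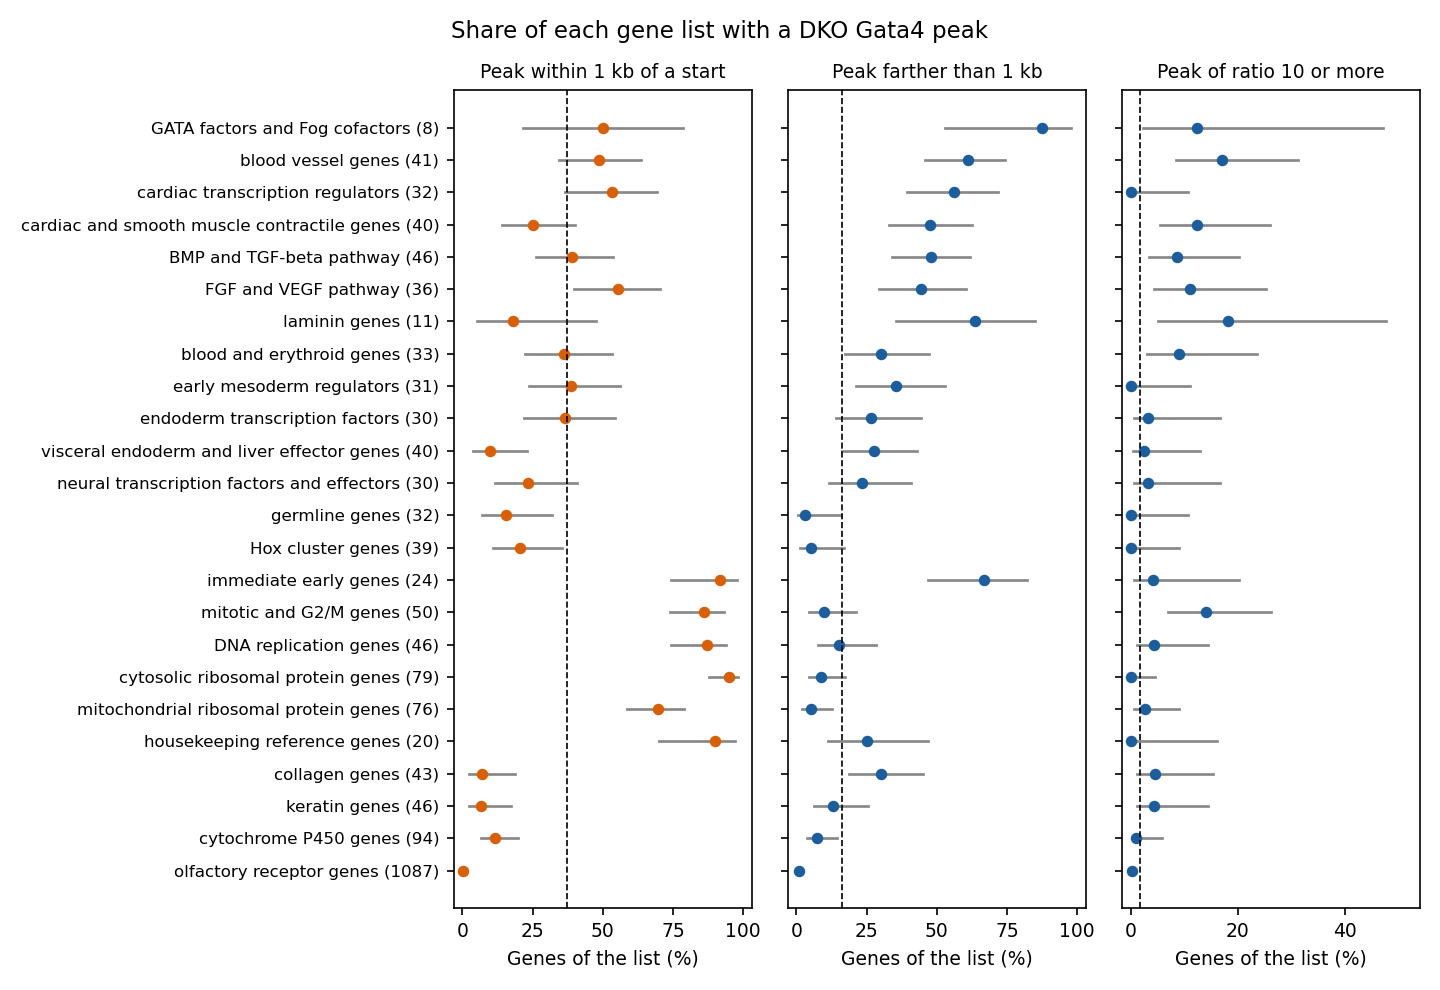
Share of the genes of 24 lists with a DKO peak within 1 kb of a start (left), farther than 1 kb from every start (middle) and with a ratio of at least 10 (right), with 95% Wilson intervals, the number of genes in parentheses and dashed lines for all protein-coding genes, at 37.4%, 16.2% and 1.77%. Vessel and contractile genes lie right of the middle line, and ribosomal, replication and mitotic genes lie right of the left line. The mitotic and replication lists were added after the tallest peaks had been seen.

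Genes that all dividing cells use were marked at their starts. Of 79 cytosolic ribosomal protein genes 75 had a peak within 1 kb of a start (94.9%, against 37.4%), 7 had one away from starts and none had a ratio of at least 10, with the tallest at *Rpl9* (21.8), *Rpl27* (20.9) and *Rps16* (18.0). A peak within 1 kb of a start was found at 53 of 76 mitochondrial ribosomal protein genes (69.7%), 29 of 39 proteasome genes (74.4%), 44 of 58 translation initiation factor genes (75.9%) and 30 of 36 genes of respiratory complex I (83.3%). Of 20 reference genes for expression 18 were given a peak, among them *Tubb5* (22.9), *Pgam1*, *Ldha* (16.3) and *Sdha* (14.8). Of 35 Polycomb and Trithorax genes 29 were given a peak (82.9%) and none had a ratio of at least 10. Among enzymes and readers of DNA methylation 14 of 21 genes had a peak, the tallest at *Mbd3* (23.3), *Mbd4* (21.8) and *Uhrf1* (20.5).

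Several of the tallest peaks lay at starts of genes of mitosis. A list of 50 mitotic and G2/M genes and a list of 46 DNA replication genes were added after the tallest peaks had been seen. The heights of the first list were therefore fixed in part by this choice, and its shares and ratios may be too. These values are a description only. Of the mitotic genes 46 were given a peak and 41 one with a height of at least 10 (82.0%, against 17.8%), with a median tallest height of 24.2 against 8.76 over all genes with a peak. *Ube2c* had 44.9 over 10.9, *Ect2* 42.5 with a ratio of 3.88 at that peak, *Hmgb2* 41.3 over 9.48, *Ccnb2* 40.9 over 12.7 and *Top2a* 50.6 over 9.56, next to *Cdca2*, *Cdca8* and *Birc5* above. The median of their ES heights was 3.49, against 1.75 over all genes with a peak. A ratio of at least 10 was found at 7 of them, *Ccna2*, *Bub1*, *Bub1b*, *Mad2l1*, *Cdca3*, *Ndc80* and *Foxm1*. *Plk1*, *Cenpa*, *Pttg1* and *Cdc25b* had no peak. Replication genes had a peak at 41 of 46, with a median tallest height of 13.4 and a median ES height of 2.14. TTTGAA, the core of the cell-cycle homology element, occurred on either strand in 57.3% of the 75 peaks at starts of mitotic genes and CCAAT in 77.3%, against 15.0% and 46.1% of all peaks at starts. The starts of the mitotic genes themselves, whatever their peaks, held these motifs in 70.0% and 86.0%. At starts of replication genes these shares were 11.2% and 62.5%. The GATA motif occurred in 15 of the 75 peaks of mitotic genes and in 6.25% of those of replication genes.

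Several families had a smaller share of genes with a peak than all genes. Of 1087 olfactory receptor genes 10 were given a peak (0.920%), of 319 vomeronasal receptor genes 2, and of 41 beta-defensin genes none. Olfactory receptor genes were short, with a median length of 963 bp, as were vomeronasal receptor genes at 1080 bp and beta-defensin genes at 3160 bp. Cytochrome P450 genes had a peak at 16 of 94 (17.0%), germline genes at 6 of 32 (18.8%), and keratin genes at 8 of 46 (17.4%), with median lengths of 22118, 18874 and 7270 bp. Hox genes had a peak at 14 of 39 (35.9%), with an interval of 22.7% to 51.6% that holds the share of all genes, and no Hox height was above 7.77 (*Hoxd3*). Their median length was 4058 bp, in the class of shortest genes, of which 21.0% were given a peak. Of 32 germline genes, *Stag3* had 12.7, *Tdrd1* 7.10 and *Brdt* 6.45, and *Dazl*, *Ddx4* and *Mael* had no peak.

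Neural genes had a peak at 12 of 30 and pluripotency genes at 14 of 33 (42.4%), where *Stat3* (13.7), *Tet1* (12.9), *Fbxo15* (11.8), *Tdgf1* (11.8) and *Fgf4* (9.97) were highest and *Pou5f1*, *Sox2* and *Nanog* had none. Among matrix genes, 15 of 43 collagen genes (34.9%) and 8 of 11 laminin genes had a peak, among them *Lama3* (12.1), *Lamc3* (9.90), *Lamc1* (9.45) and *Lamb2* (8.25). Glucocorticoid receptor targets had a peak at 19 of 29 (65.5%), with *Per1* at 15.1, *Zbtb16* at 13.5, *Klf9* at 12.7, *Gadd45g* at 12.3 and *Ddit4* at 11.8 and none with a ratio of at least 10.

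Peaks were unevenly spread over the chromosomes. Chromosome 8 held 2108 peaks, or 16.0 per Mb, and chromosome 11 held 2316, with 10.3 per Mb within 1 kb of a start and 8.69 per Mb farther. The other autosomes held from 5.54 to 11.3 peaks per Mb in all, and chromosome X held 1.48. Chromosomes 8 and 11 together carried 4424 peaks (19.5%) and 12.3% of protein-coding genes. Away from starts the density was 9.37 per Mb on chromosome 8, against 2.62 to 4.61 on the autosomes other than 8 and 11. On chromosomes 8 and 11, 51.7% and 47.0% of their genes had a peak within 1 kb of a start, against 28.8% to 40.8% on the others. The ES height of their peaks away from starts was also higher, with medians of 1.41 and 1.54 against 1.20 to 1.34 on the other autosomes. On chromosome X it was 0.877. Of the 12 genes with most peaks 7 lay on chromosomes 8 or 11 (*Zfpm1*, *Gse1*, *Pard3*, *Bcas3*, *Kdm6b*, *Ddc* and *Dnahc2*), and so did 10 of the 15 genes of best mean rank. The number of copies of these chromosomes in the cells, and its part in these ranks, was not tested. Without chromosomes 8 and 11 the 5 genes with most peaks were *Trp73*, *Frmd4b*, *Tead1*, *Maml3* and *Auts2*. There, 6 of 32 vessel genes (18.8%) and 5 of 34 contractile genes (14.7%) had a ratio of at least 10, against 1.65% of all genes. So did 2 of 11 laminin genes (18.2%). The share was 15.9% (7 of 44) for mitotic genes, a list added after the tallest peaks had been seen. Other lists lost such genes: 1 of 23 blood genes (4.35%) had one in place of 3 of 33, since *Lyl1* and *Cbfa2t3* lie on chromosome 8, and no gene of the collagen, visceral endoderm and liver, or Gata and Fog lists had one.

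**Figure D5:**
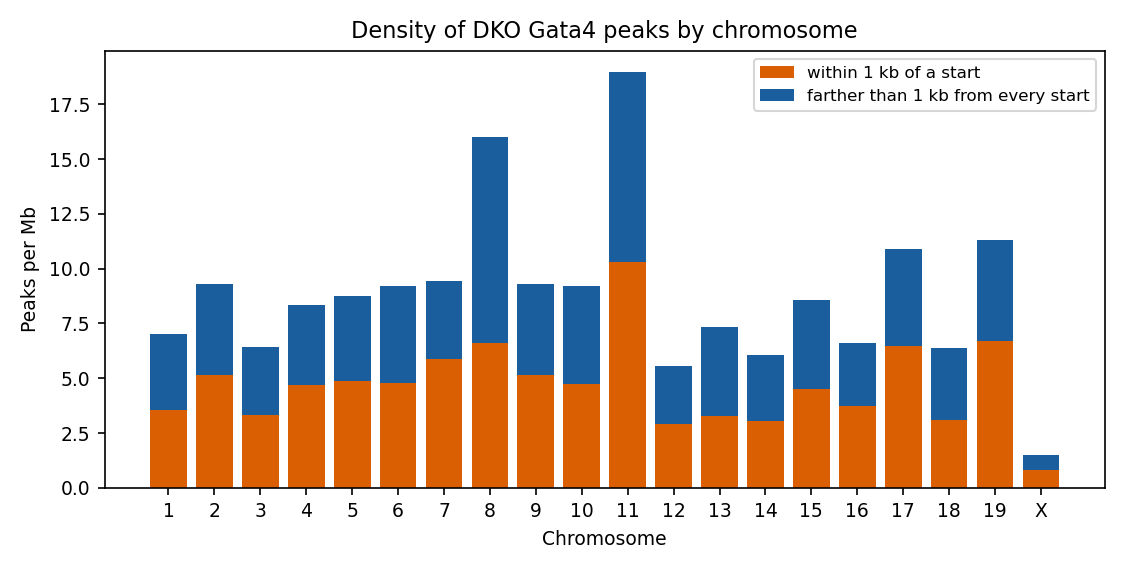
Peaks per Mb of each chromosome in mm9, within 1 kb of a start (orange) and farther (blue), stacked. Chromosome 8 reaches 16.0 peaks per Mb and chromosome 11 is higher, the other autosomes stay at or below 11.3 and chromosome X is at 1.48.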

How the data were processed

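Gata4 was precipitated with 3 mixed anti-GATA4 antibodies and sequenced. Per the labels and the methods, reads were processed with CASAVA 1.8.1 and cutadapt and placed on mm9; the aligner and any scaling of heights by depth are not given in the sources used here. The authors called peaks with DNAnexus tools in the mesoderm library over the DKO ES library and deposited, for each peak, a signal (its height in both libraries), a rank score, its position, 501 bp of sequence and RefSeq genes within 5 kb. The depth behind each peak is unknown. Columns of the authors' enrichment and q-values were not used, nor was the WT list.

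The members and lists were chosen with earlier results of these data known. All 22733 sequences equalled the NCBIM37 genome at their positions. Gene names were matched to GENCODE vM1: 10405 directly, 271 through another symbol, and 143 not. Starts are those of all annotated transcripts. Genes were named by rank (12 for number, height and ratio, 15 for their mean rank, 5 for peaks per 100 kb) and, for lists and families, by tallest peak and by list order among genes without one; other genes were singled out after their values were seen. Some genes that these rules name are not reported here. Shares carry 95% Wilson intervals. The steps were tested on simulated data. Python 3.11.15, pandas 2.3.3, NumPy 2.4.6, SciPy 1.17.1 and Matplotlib 3.10.9 were used.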

Additional observations from a re-analysis of the deposited data

How the results depend on the processing

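The share of peaks with a ratio of at least 5 was 38.3%. A floor of 0.5 or none gave the same share by construction. Every peak had a height of at least 5, so each ES height below 1 already gave such a ratio. The share was 9.65% with a floor of 2, 47.0% among heights of at least 10 and 61.2% in the better ranked of 2 equal parts. With peaks within 500 bp counted once it was 40.4%, and without chromosomes 8 and 11 it was 39.7%. Genes with a peak numbered 3947 at a height of at least 10 and 6855 in the better ranked part, and stayed within 1.5 times of 10367 (8303 to 13310) under 4 other ways of assigning genes. Of the 12 genes with most peaks, 1 remained per 100 kb of gene, 7 within 20 kb of the gene body and 5 without chromosomes 8 and 11. Of the 12 of highest ratio, 5 remained with a floor of 0.5, 2 with a floor of 2 and 3 by the mean ratio of a gene's peaks. Of the 12 with the tallest peak, 1 remained by the sum of heights. Of 53 lists, 41 were above all genes, but 29 at a height of at least 10, 33 within 1 kb of a start and 43 within 20 kb. Contractile genes were above all genes by genes within 5 kb and below them within 1 kb of a start (37.4%). A looser motif that also takes AGATAG and TGATAG was found in 72.6% of peaks away from starts. The windows 2 kb to either side of them held it in 58.2%, a smaller gap than for the main motif (62.6% and 38.5%). At starts the looser motif was found in 27.7% of peaks, against 37.0% of windows around all protein-coding starts. In the class of highest ratio it was found in 81.7%. In the central part of the window, the main motif was found in 52.2% of peaks away from starts, 8.21% at starts and 70.7% of the class of highest ratio. Without chromosomes 8 and 11 the main motif was found in 64.2% of peaks away from starts. The share of peaks near a start was 46.8% within 500 bp, 57.2% within 2 kb and 54.1% without chromosomes 8 and 11. Leaving out these chromosomes was chosen after seeing the data. Of 66 alternatives, which include shares of single lists, 38 moved the value beyond its counting interval or 1.5 times. The others include the lower floors, which could not move the share of ratios of at least 5. No paired analysis was possible because each condition has 1 library. With no replicate and no read counts in the list, the spread between libraries cannot be given.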
